A study of Mus musculus with 4 samples.

Results

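Cluster 67 is a group of neuronal nuclei of the mouse posterior hindbrain that the authors named after *Foxp2* and *Il1rapl2*. Its members are the nuclei that the authors kept, assigned to their cluster 67 and annotated as neurons, and there were 132 of them among 12539 neurons (1.05%), in a data set of 39461 kept nuclei and 44303 barcodes. Among the 134 neuronal clusters in the table used here, slightly fewer than the study counted, it ranked 29 by number of nuclei. The study asked which hindbrain neurons respond to the activation of hypothalamic AgRP neurons together with the inhibition of POMC neurons. The 4 libraries were made with the 10x Genomics 3′ kit from a piece of hindbrain that held the area postrema and the nucleus tractus solitarius, 2 for each group, from adult mice of both sexes at 12 to 20 weeks of age. AgRP-Gq;POMC-Gi mice carried AgRP-IRES-Cre+/-, hM3DGqfl/-, POMC-Dre+/- and hM4DGifl/-, so that Cre in AgRP neurons switches on the excitatory receptor hM3DGq and Dre in POMC neurons switches on the inhibitory receptor hM4DGi. Control mice are named wild type in the labels, while the breeding scheme of the study gives its controls both receptor alleles without either recombinase. Mice of both groups received clozapine *N*-oxide (CNO), which acts on these receptors, at 3 mg per kg into the peritoneum and were killed 1 h later without food in between. The labels give 2 mice per group and say that samples of a condition were pooled. Whether the 2 libraries of a group hold separate mice is not stated. The 2 AgRP-Gq;POMC-Gi libraries differed in *Xist* and Y-linked UMIs, as given below, so they did not hold the same mix of nuclei by sex. The p-values measure the spread between libraries, which may be technical in part.

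Inhibitory neurons of the hindbrain release GABA, glycine or both. They load these transmitters into vesicles through the carrier encoded by *Slc32a1*, make GABA with the enzymes encoded by *Gad1* and *Gad2*, and take up glycine through the carrier encoded by *Slc6a5*. Foxp2 is a forkhead transcription factor found in several groups of brainstem and spinal interneurons, and Il1rapl2 belongs to the interleukin-1 receptor accessory protein-like family of membrane proteins, of which Il1rapl1 organizes synapses. Immediate early genes (IEGs) are genes whose transcription rises within minutes to an hour of strong neuronal activity, which is why they serve as a record of recent firing.

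Control replicates 1 and 2 held 26 and 41 nuclei of cluster 67, and AgRP-Gq;POMC-Gi replicates 1 and 2 held 43 and 22. Their counts of unique molecular identifiers (UMIs, one per captured RNA molecule) summed to 345233, 475540, 555869 and 308444 in this order, which is also the order of every set of 4 values below. The median nucleus of the cluster held 11552 UMIs and 4132 genes, against 8704 UMIs over all neurons, and the medians of the libraries were 11902.5, 10402, 11303 and 13481.5 UMIs. No barcode of the cluster occurred in a second library. Levels are given as CPM, the UMIs of a gene as a share of all UMIs of the same nuclei scaled to 1e6, summed within each library and averaged over the 4 libraries as mean ± SD (n = 4), and apply to UMIs counted at the 3′ end, which are not divided by gene length. The 5 neuronal markers (*Rbfox3*, *Snap25*, *Syt1*, *Meg3* and *Map2*) together reached 13544 to 14070 CPM in the cluster and 12456 to 13297 CPM in the other 12407 neurons. The authors annotated cell types by expression signatures in these same data, so these levels describe the annotation and do not test it. All 6 oligodendrocyte markers had UMIs in the cluster, at 91.7 to 229 CPM in sum against 146 to 297 CPM in other neurons. The 6 microglia markers summed to 78.2 to 162 CPM and the 6 astrocyte markers to 31.5 to 101 CPM, with 1 and 2 markers at 0.

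Several libraries stood apart in ways that touch the values below. *Ttr*, which encodes transthyretin of the choroid plexus, had 0, 387, 4 and 145 UMIs in cluster 67, and its level in other neurons moved alike, with 1.5, 1006, 7.5 and 581 CPM. *Xist*, expressed from the inactive X chromosome of females, reached 238, 311, 549 and 55.1 CPM, and 13, 27, 37 and 2 nuclei had *Xist* without a Y-linked UMI, against 12, 10, 3 and 19 with the reverse. The 73 ribosomal protein genes together had 3954, 2824, 1855 and 2740 CPM in the cluster and 3319, 3557, 2284 and 3210 CPM in other neurons, lowest in both in AgRP-Gq;POMC-Gi replicate 1. The part of these differences in the comparison of groups was not tested.

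Against other neurons as a whole, the cluster held more of the transcription factor genes of the Onecut family, of *Foxp2* and *Il1rapl2* and of a long non-coding RNA, each of which some other clusters held too. Clusters were built from the expression of these nuclei, so the differences between cluster 67 and other neurons are descriptions without a test. Of 12881 genes detected in 5% or more of cluster 67 or of other neurons, 33 (0.256%) were more than 2-fold higher in the cluster in 4 of 4 libraries and 171 (1.33%) were more than 2-fold lower. Of these, 23 and 109 reached 5% of the nuclei solely in the population where they were high, so the counts depend on that filter and are read as a listing of genes. The 20 leading genes were those with the largest ratio to other neurons among genes found in at least 25% of the nuclei of the cluster and higher in 4 of 4 libraries.

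*Gm12082*, a lincRNA gene at chr11:28751633-28815767 on the plus strand of GRCm38, led the list with 46, 109, 103 and 40 UMIs. Its level was 169 ± 47.3 CPM in the cluster and 7.4 CPM in other neurons, and 42.4% of the nuclei of the cluster had a UMI against 3.0% of other neurons. No other neuronal cluster reached its level, and the next, cluster 173, had 86.4 CPM. *Onecut1* (chr9:74861921-74891781, plus strand) encodes a homeobox factor of the Cut class that takes part in specifying neurons. It had 11, 32, 24 and 15 UMIs and 47.7 ± 14.8 CPM against 4.0 CPM, the second of 134 clusters behind cluster 173 with 66.0 CPM, and cluster 30 had 41.8 CPM. Its paralogue *Onecut2* had 56, 51, 78 and 40 UMIs, and with 135 ± 22.9 CPM against 22.4 CPM it was highest in cluster 67, close above cluster 30 with 122 CPM. Oligodendrocytes also held *Onecut2*, at 139 CPM. *Onecut3*, with 3, 8, 5 and 7 UMIs, was 14.3 ± 6.7 CPM against 1.6 CPM, so all 3 members of the family were more than 2-fold higher in every library.

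*Foxp2* (chr6:14901349-15441977, plus strand) had 58, 213, 322 and 53 UMIs, that is 168, 448, 579 and 172 CPM. The level was therefore uneven, with control replicate 2 and AgRP-Gq;POMC-Gi replicate 1 high and the other 2 libraries low, and each group held 1 high and 1 low library. Its mean of 342 ± 206 CPM compared with 67.4 ± 43.3 CPM in other neurons, where control replicate 1 alone reached 131 CPM and the other libraries 39.6 to 59.4 CPM. Its log2 ratio to other neurons was 2.33. With each library left out it lay between 1.76 (without AgRP-Gq;POMC-Gi replicate 1) and 3.08 (without control replicate 1). The clusters that held more *Foxp2* were cluster 72 with 1989 CPM and cluster 152 with 1124 CPM. *Il1rapl2* (chrX:137570608-138846946, plus strand) was even across libraries with 394, 518, 764 and 388 UMIs, a level of 1216 ± 127 CPM against 426 ± 34.8 CPM. It was found in 58.3% of the nuclei of the cluster and 32.5% of other neurons, and 12 clusters ranked above cluster 67. The 2 genes in the name of the cluster were thus shared with other clusters, in the case of *Il1rapl2* widely.

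**Figure D1:**
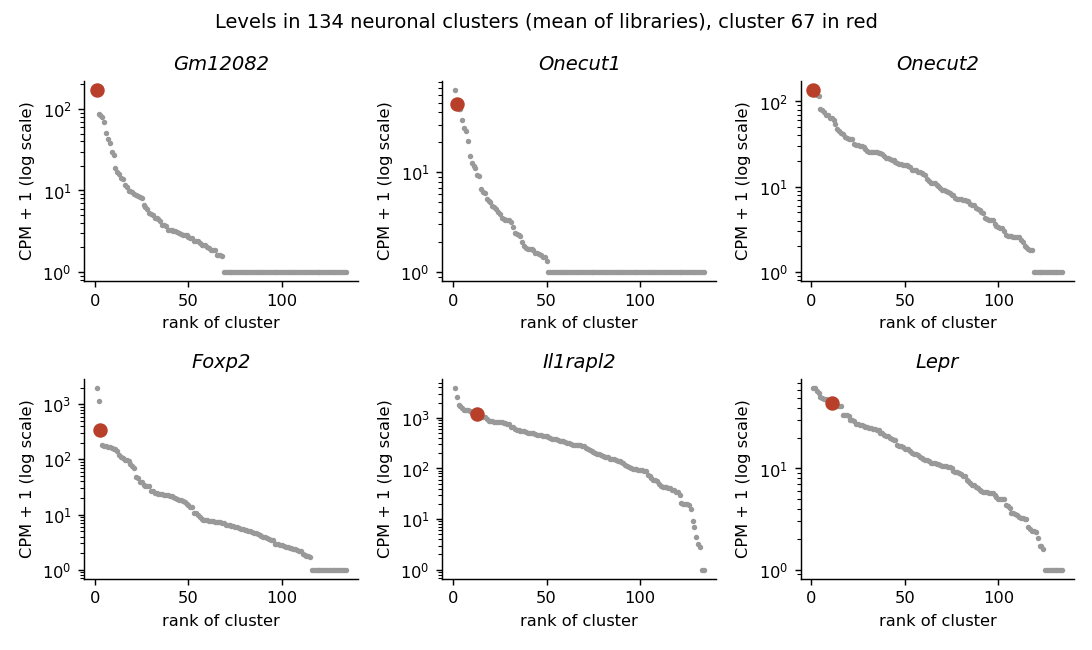
Level of 6 genes in each of the 134 neuronal clusters, as CPM + 1 on a log axis (mean of libraries) against the rank of the cluster, with cluster 67 in red. Cluster 67 ranks first for *Gm12082* and *Onecut2*, second for *Onecut1*, at rank 3 for *Foxp2*, and lies at rank 11 for *Lepr* and 13 for *Il1rapl2*.

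Among the other leading genes *Sema3a*, a secreted axon guidance cue, had 26, 171, 153 and 51 UMIs and 219 ± 124 CPM against 76.0 CPM. The cadherins *Cdh11* and *Cdh20* reached 234 ± 37.6 and 262 ± 88.3 CPM against 80.9 and 97.8 CPM, although oligodendrocytes held *Cdh20* at 1348 CPM. *Megf11*, which takes part in the spacing of retinal neurons, had 135 ± 32.6 CPM against 36.1 CPM, and the protease gene *Adamts19* 60.9 ± 48.3 CPM against 18.2 CPM, with 7, 57, 45 and 7 UMIs. *Adamts19*, *Sema3a* and *Foxp2* were all lower in control replicate 1 and AgRP-Gq;POMC-Gi replicate 2 than in the other 2 libraries.

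*Htr1f*, the serotonin 1F receptor, had 102, 116, 201 and 133 UMIs, and its 333 ± 81.2 CPM against 114 CPM ranked 3 of 134 clusters. *Grin2c*, an NMDA receptor subunit, had 29.8 ± 14.4 CPM against 9.1 CPM. *Nos1* (chr5:117781032-117958840, plus strand), the neuronal nitric oxide synthase, had 17, 42, 30 and 14 UMIs and 59.2 ± 19.7 CPM against 20.2 CPM, and 28.0% of nuclei had a UMI. *Lepr* (chr4:101717404-101815352, plus strand), the leptin receptor, had 11, 23, 22 and 17 UMIs. Its 43.7 ± 10.2 CPM compared with 17.4 CPM, and it was found in 34.8% of the nuclei of the cluster against 12.4% of other neurons. The remaining leading genes, *Mctp2*, *Adarb2*, *Dach2*, *Col16a1*, *Dysf* and *Tmtc2*, were 2.35 to 3.66-fold above other neurons.

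**Figure D2:**
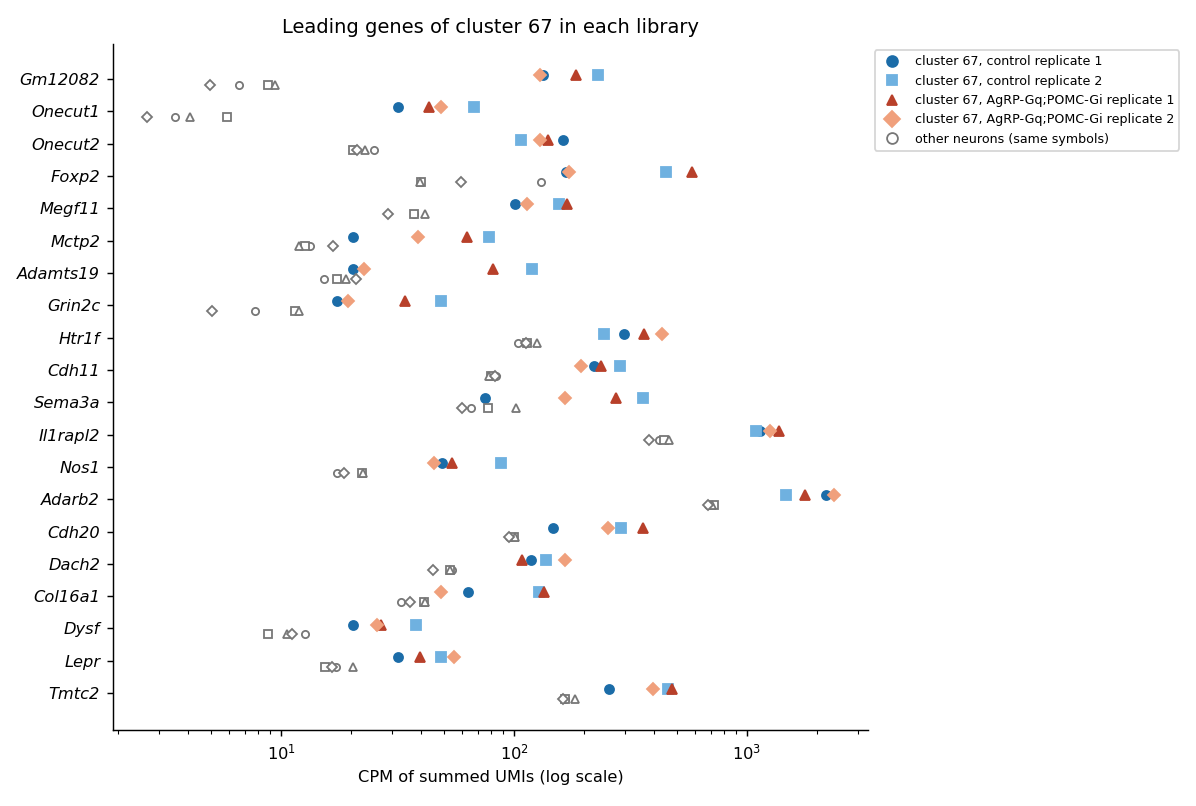
The 20 leading genes of cluster 67 in each library, as CPM of summed UMIs on a log axis. Filled symbols are the 4 libraries of the cluster and open symbols the same libraries in other neurons, and for *Foxp2*, *Adamts19* and *Sema3a* control replicate 1 and AgRP-Gq;POMC-Gi replicate 2 lie below the other 2 libraries.

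The 10 genes lowest against other neurons included 4 transcription factor genes. *Ebf3*, an early B-cell factor family member, had 0, 0, 0 and 1 UMIs, against 98.2 ± 10.3 CPM in other neurons, and *Ebf1* had 41.8 ± 11.3 CPM against 536 CPM. *Nfib*, a nuclear factor I gene, had 8.2 CPM against 107 CPM, and the zinc finger homeobox gene *Zeb2* had 1, 11, 4 and 0 UMIs, 8.3 ± 10.3 CPM against 146 CPM. The log2 ratio of *Zeb2* to other neurons was −3.98, and −5.10 without control replicate 2, while without AgRP-Gq;POMC-Gi replicate 2 that of *Ebf3* went from −5.78 to −6.56 and that of *Tmem163* from −2.65 to −3.46. *Camkv*, *Arpp21*, *Trpm3*, *Nrn1* and *Tmem163* were also among the 10, with *Trpm3*, a heat-gated cation channel, at 92.9 CPM against 771 CPM. The 10 also included *Slc17a6*, which encodes the vesicular glutamate transporter VGLUT2.

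The transmitter genes of the cluster were those of inhibitory neurons, with GABA and glycine genes often found in the same nuclei. *Slc32a1* had 24, 22, 25 and 17 UMIs and 54.0 ± 11.3 CPM against 26.8 CPM in other neurons. *Gad1* had 51, 57, 58 and 24 UMIs (112 ± 29.2 CPM against 49.7 CPM) and *Gad2* had 80, 77, 87 and 64 UMIs (189 ± 36.3 CPM against 94.1 CPM). *Slc6a5* had 44, 64, 140 and 47 UMIs, and its 167 ± 57.8 CPM against 82.0 CPM was highest in AgRP-Gq;POMC-Gi replicate 1. *Slc17a6* had 5, 3, 2 and 6 UMIs, and its 11 ± 7.3 CPM lay below both the 76.9 CPM of other neurons and the 13.9 CPM of oligodendrocytes, which are not glutamatergic neurons. Mean CPM of *Slc32a1* was 4.92-fold that of *Slc17a6*, past the 4-fold ratio used here to call a cluster inhibitory, with 4.25 to 6.59-fold when each library was left out, but short of a 10-fold ratio. None of the 8 genes of the inhibitory transmitter list was 2-fold higher in every library, and the background among all genes was 0.256%. Their median log2 ratio to other neurons was 0.78, against −0.02 over all genes.

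In single nuclei, at least 1 of these 4 inhibitory genes was found in 123 of 132 (93.2%) and at least 2 in 111 (84.1%). *Slc6a5* had a UMI in 96 nuclei (72.7%), and in 86 (65.2%) it came with *Gad1* or *Gad2*. Cluster 30, which holds mainly *Slc17a6* and has a median of 13154 UMIs, had *Slc6a5* in 14.6% of its 219 nuclei and both kinds of gene in 11%, and oligodendrocytes, with a median of 2460 UMIs, in 1.39 and 0.137%. After every nucleus was thinned to 2000 UMIs, which left out 5416 oligodendrocytes and no nucleus of the clusters, *Slc6a5* with *Gad1* or *Gad2* was found in 15.2% of cluster 67, 1.37% of cluster 30 and 0.0702% of oligodendrocytes. The 9 nuclei with none of the 4 genes had a median of 6317 UMIs, against 15870 UMIs in the 37 nuclei that held all 4, so detection moved with depth. *Slc17a6* was found in 11 nuclei (8.33%), in 9 of them with 1 UMI, and 3 of the 11 had none of the 4 inhibitory genes. As counted, *Slc17a6* was found in 3.49% of the shallower oligodendrocytes. At 2000 UMIs its share was 1.52% in cluster 67 and 2.59% in oligodendrocytes. Whether its UMIs in cluster 67 are background was not tested.

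**Figure D3:**
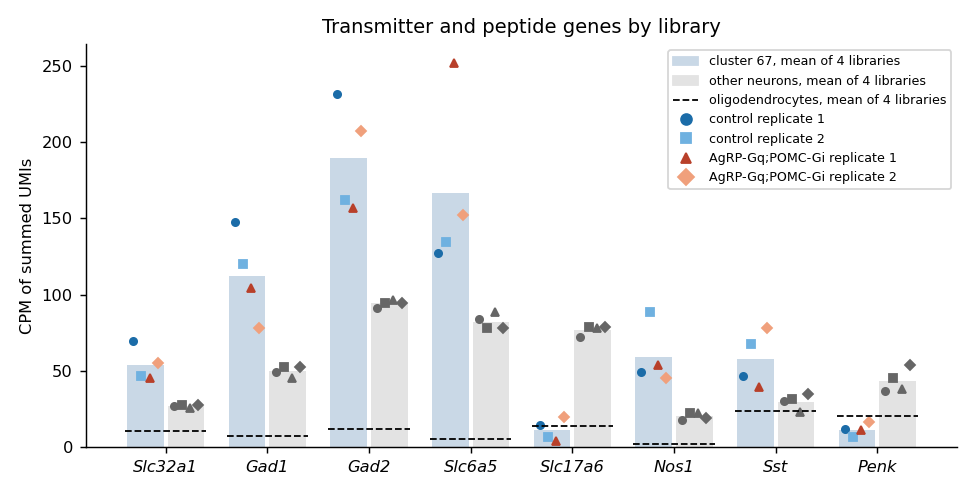
Transmitter and peptide genes as CPM of summed UMIs, with bars for the mean of 4 libraries in cluster 67 and in other neurons, coloured and grey symbols for single libraries and a dashed line for oligodendrocytes. *Slc32a1*, *Gad1*, *Gad2* and *Slc6a5* lie above other neurons in 4 of 4 libraries, while *Slc17a6* stays at the level of oligodendrocytes and *Penk* lies below other neurons in 4 of 4 libraries.

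Neuropeptide genes were sparse, and 7 of the 35 on the list reached 5% of the nuclei of the cluster. Of 11 members of the peptide list detected in at least 5% of either population, none was more than 2-fold higher in every library and 5 were lower, namely *Gal*, *Penk*, *Tac1*, *Cck* and *Nppc*. Of the 5, *Gal*, *Cck* and *Nppc* were detected in 5% of other neurons but not of cluster 67, and had entered the count for that reason. Over all genes 0.256% were higher and 1.33% lower, and nothing is read from the count of members. *Penk*, the precursor of enkephalins, had 4, 3, 6 and 5 UMIs, 11.2 ± 4.1 CPM against 43.3 ± 7.8 CPM. *Sst*, which encodes somatostatin, had 16, 32, 22 and 24 UMIs and 57.8 ± 17.8 CPM against 29.8 ± 4.8 CPM, and it lay in 13.6% of the nuclei against 16.4% of other neurons, so its UMIs were gathered in fewer nuclei. *Cartpt*, the precursor of CART peptides, had 9, 13, 25 and 0 UMIs. *Agrp* UMIs numbered 43, 47, 47 and 27. At 98.9 ± 18.2 CPM in the cluster and 87.9 CPM in other neurons these were alike in both populations, and the annotated gene (chr8:105566698-105637393, minus strand) spans a stretch far longer than the AgRP coding part. *Pomc* had 0, 3, 3 and 0 UMIs.

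Transcription factors on a list of 64 hindbrain lineage genes, of which 35 were detected, included 5 that were more than 2-fold higher in every library and 13 that were lower. Detection in 5% of the nuclei was reached solely in the population where the gene was high by 4 of the 5 and 9 of the 13, so nothing is read from these counts beside the 0.256% and 1.33% over all genes. The 5 were *Onecut1*, *Onecut2*, *Onecut3*, *Otp* and *En1*. *Otp*, a homeobox gene of neuroendocrine and some hindbrain neurons, had 3, 10, 15 and 1 UMIs, 15.0 ± 10.9 CPM against 1.1 CPM. *En1*, the engrailed gene that marks V1 interneurons in the embryonic spinal cord and hindbrain, had 2, 1, 3 and 2 UMIs, 4.9 ± 1.9 CPM against 0.6 CPM, which is a small number of molecules. The lower genes were *Lmx1b*, *Tfap2a*, *Tfap2b*, *Nfib*, *Ebf1*, *Ebf2*, *Ebf3*, *Satb1*, *Bcl11b*, *Tshz2*, *Maf*, *Zic1* and *Zic4*. *Lmx1b*, which marks dorsal excitatory neurons, had 0, 1, 1 and 1 UMIs, and *Tfap2b* had 2, 0, 0 and 0. *Pax2*, a factor of inhibitory interneurons, did not differ in this way, with 46.0 ± 17.8 CPM against 60.6 ± 4.1 CPM. Of the 10 detected *Hox* genes, *Hoxa5* and *Hoxb5* were lower in every library, against 1.33% over all genes, but both reached 5% of the nuclei solely in other neurons and nothing is read from this count.

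Receptors for feeding signals other than *Lepr* were mostly at low counts. Of 24 detected genes in this list, none passed 2-fold in every library in either direction, where over all genes 0.256% were higher and 1.33% lower, and *Lepr* itself did so in 2 of 4. *Htr2c*, the serotonin 2C receptor, had 344, 624, 846 and 741 UMIs, and its 1558 ± 603 CPM against 725 ± 67.7 CPM ranked 7 of 134 clusters. *Mc4r*, the melanocortin 4 receptor, had 2, 7, 2 and 0 UMIs, and *Npy1r*, a receptor of neuropeptide Y, had 4, 3, 1 and 0. *Glp1r* had no UMI in 132 nuclei, which allows a share of nuclei with a UMI of up to 2.27% for counting error only, and 1.9% of other neurons had one. Of 34 detected synaptic organizer genes, *Il1rapl2* was more than 2-fold higher and *Ntng1* and *Slitrk2* more than 2-fold lower in every library. Also lower in this way were *Kcnh1* and *Kcnip1* of 29 potassium channel genes and *Cacna1e* of 24 sodium, calcium and HCN channel genes. So were *Calb1* and *Necab2* of 10 calcium-binding genes. *Slitrk2*, *Calb1* and *Necab2* reached 5% of the nuclei solely in other neurons, and nothing is read from these counts. *Nrxn3* was higher in 4 of 4 libraries, at 8909 ± 1184 CPM against 4283 CPM, and *Il1rapl1*, the paralogue of *Il1rapl2*, had 2502 ± 245 CPM against 2166 CPM.

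Across 13986 genes the clusters most like cluster 67 by Pearson correlation of log2(CPM + 10) were cluster 30 (*Zfp804b*/*Npas1*, r = 0.978), cluster 33 (*Il1rapl2*/*Slc6a5*, r = 0.974) and cluster 35 (*Dmbx1*/*Cntnap5b*, r = 0.972). The same 3 led by Spearman correlation. These clusters share libraries with cluster 67, and the correlation describes likeness over genes. Clusters 33 and 35 held the inhibitory genes, with *Slc6a5* at 221 and 174 CPM, whereas cluster 30 held *Slc17a6* at 135 CPM and *Slc32a1* at 10.2 CPM. *Foxp2* stood at 16.5, 38.3 and 6.0 CPM in clusters 30, 33 and 35, below the 342 CPM of cluster 67.

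Nuclei of the cluster differed among themselves in the genes it is named for. Both *Foxp2* and *Il1rapl2* were found in 39 nuclei, *Foxp2* alone in 32, *Il1rapl2* alone in 38 and neither in 23. The 23 nuclei with neither had a median of 15099 UMIs, above the 12006 UMIs of those with both. Nuclei with *Foxp2* alone were the shallowest, at 7870 UMIs against 11716 UMIs of those with *Il1rapl2* alone, and how many *Il1rapl2* molecules were missed there for depth was not tested. *Foxp2* was found in 30.8, 65.9, 62.8 and 40.9% of the nuclei of the 4 libraries, and *Il1rapl2* in 57.7, 56.1, 60.5 and 59.1%. The share with *Foxp2* thus varied between libraries of the same group, while that with *Il1rapl2* was nearly constant. Nuclei were therefore compared within each library, once split by *Foxp2* and once by *Il1rapl2*. As both genes helped to form the cluster, these splits are descriptions.

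In nuclei with *Foxp2*, 9 of the other 19 leading genes were higher in 4 of 4 libraries and 1 was lower, where among all 6484 genes found in 25% or more of the nuclei 7.76% were higher and 9.27% lower. *Adamts19* stood at 110 ± 52.4 CPM in nuclei with *Foxp2* and 4.9 ± 6.2 CPM in those without. *Sema3a* stood at 350 and 63.3 CPM, *Col16a1*, a collagen gene, at 167 and 33.4 CPM, and *Grin2c* at 51.1 and 11.5 CPM. *Megf11*, *Mctp2*, *Htr1f*, *Cdh11* and *Cdh20* went the same way. *Adarb2*, a catalytically inactive relative of RNA-editing deaminases, was the one that was lower, at 1248 CPM with *Foxp2* and 2659 CPM without.

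Nuclei with *Il1rapl2* had 8 of the other 19 leading genes higher in 4 of 4 libraries and 2 lower, against 7.87% higher and 7.26% lower among all genes in this split. *Gm12082* stood at 259 ± 69.5 CPM with *Il1rapl2* and 27.9 ± 28.1 CPM without. *Nos1* stood at 97.3 ± 28.2 and 3.8 ± 4.6 CPM, and was found in 45.5% and 3.6% of the nuclei. *Mctp2* had no UMI in the 55 nuclei without *Il1rapl2*, which allows a share of up to 5.45%, and was found in 45.5% of those with it. *Dach2* (194 and 37.6 CPM), *Tmtc2* (560 and 151 CPM), *Onecut1*, *Megf11* and *Cdh20* were also higher, while *Foxp2* (234 and 524 CPM) and *Adamts19* (26.5 and 117 CPM) were lower in nuclei with *Il1rapl2*. *Foxp2* was found in 50.6% of the nuclei with *Il1rapl2* and 58.2% of those without. In the split by *Foxp2*, *Il1rapl2* stood at 1173 CPM with and 1390 CPM without, higher in 2 libraries and lower in 2.

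Genes outside the leading list, chosen here after their values were seen, divided along the same lines. *Sst* stood at 91.1 CPM in nuclei with *Il1rapl2* and 9.6 CPM in those without, and at 14.6 CPM in nuclei with *Foxp2* and 108 CPM in those without, each in 4 of 4 libraries. *Htr2c* was higher with *Il1rapl2* (1929 and 975 CPM) and lower with *Foxp2* (1218 and 1999 CPM). *Zfhx3*, a zinc finger homeobox gene, was lower with *Il1rapl2* (234 and 824 CPM), and the homeobox gene *Meis1* was higher with *Foxp2* (307 and 109 CPM). *En1* had no UMI in the 71 nuclei with *Foxp2*, which allows a share of up to 4.23%, and was found in 11.5% of those without. The GABA genes did not divide in this way, with *Gad2* at 182 and 181 CPM in the *Foxp2* split and 196 and 195 CPM in the *Il1rapl2* split. *Slc6a5* was higher in nuclei with *Foxp2* in 4 of 4 libraries, at 206 and 134 CPM. *Slc17a6* was lower with *Foxp2* in 4 of 4 libraries, at 2.3 and 15.4 CPM and in 4.2 and 13.1% of the nuclei, on 16 UMIs in all. The values were close in control replicate 2 (6.2 and 6.5 CPM) and AgRP-Gq;POMC-Gi replicate 1 (3.1 and 4.3 CPM). They were 0 and 20.2 CPM in control replicate 1, and 0 and 30.6 CPM in AgRP-Gq;POMC-Gi replicate 2.

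**Figure D4:**
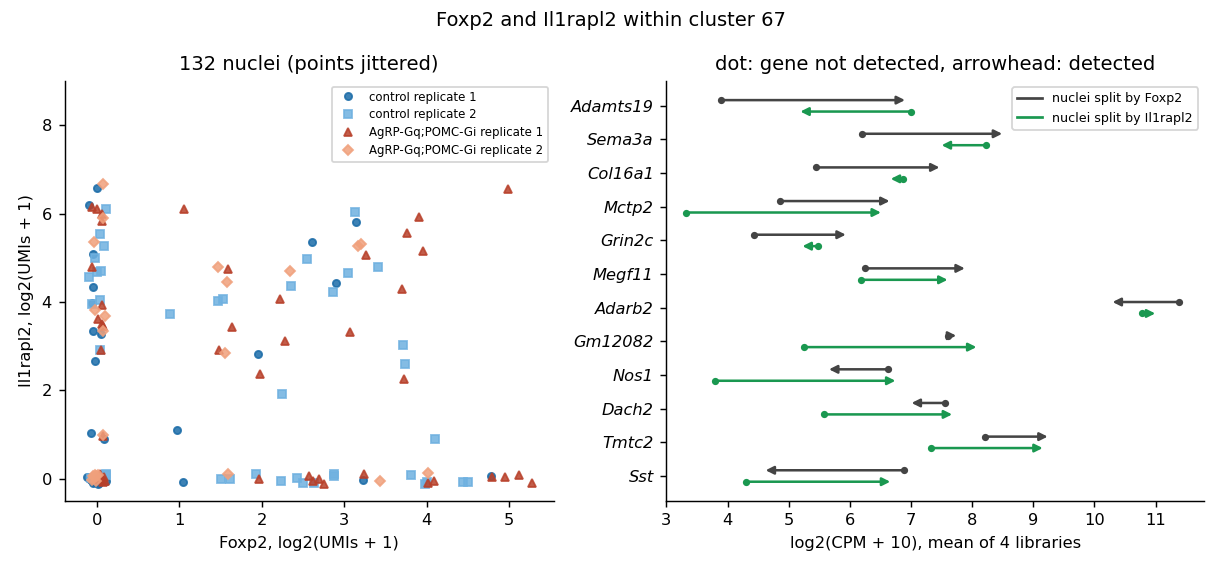
Left, *Foxp2* against *Il1rapl2* in the 132 nuclei as log2(UMIs + 1) with small random shifts, with a symbol for each library. Right, mean of 4 libraries as log2(CPM + 10) of 12 genes in nuclei without (dot) and with (arrowhead) *Foxp2* or *Il1rapl2*, chosen after their values were seen, in which *Adamts19* and *Sst* move in opposite directions in the 2 splits.

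The comparison of AgRP-Gq;POMC-Gi with control mice asked whether the cluster changed in size or expression. Cluster 67 made up 1.05% (exact 95% interval 0.689 to 1.54%) and 1.50% (1.08 to 2.03%) of the neurons of control replicates 1 and 2, and 1.16% (0.843 to 1.56%) and 0.605% (0.379 to 0.914%) of those of AgRP-Gq;POMC-Gi replicates 1 and 2. The groups overlapped. Their means were 1.28 ± 0.315 and 0.884 ± 0.395% (SD, n = 2 each), a difference of −0.391 points with p = 0.667 in an exact two-sided permutation test, in which 2 against 2 libraries cannot go below 0.33. Of all kept nuclei the cluster made up 0.267, 0.408, 0.442 and 0.221%. The intervals cover counting error only, and the share also depends on what the dissection took in.

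No gene passed an adjusted p of 0.05 between the groups in cluster 67, with edgeR's quasi-likelihood test on UMIs summed per library and Benjamini-Hochberg adjustment over 12510 genes (0.0% called, smallest adjusted p 0.553). At an unadjusted p under 0.05 there were 310 genes with higher and 272 with lower values in AgRP-Gq;POMC-Gi libraries, 582 in all. DESeq2 called 0 genes and had 66 at an unadjusted p under 0.05. Where no gene differs, a share of about 0.05 of the genes tested passes this threshold, so nothing is read from such counts, here or below. Without AgRP-Gq;POMC-Gi replicate 1 there were 30 calls and without AgRP-Gq;POMC-Gi replicate 2 there were 9, where the lone library of that group is assumed to vary like the others. The 30 included *Erbb4*, *Zfp521*, *Tacr3*, *Grm7* and *9530026P05Rik*, described below, as well as *Xist*, *Uty* and *Kdm5d*, and the 9 included *Pappa*, *Gapdh* and *Ttr*. Without a filter on genes there were 10 calls. They were *Erbb4*, *Zfp521*, *Tacr3* and *Pappa*, described below, and *Cacna2d1*, *Zfp804b*, *Racgap1*, *Dqx1*, *Gm31045* and *Rln3*. Among simulated 4-fold changes in genes of at least 50 CPM in this cluster the test called 93.5%, and among 2-fold changes 30%. Genes below 50 CPM, such as *Homer1* and the other detected IEGs, were not among those changed, so these rates do not apply to them. A test of whether the group difference in cluster 67 differed from that in other neurons called 0 of 12510 genes (0.0%, smallest adjusted p 0.403), with 498 at an unadjusted p under 0.05, and DESeq2 called 0 with 123. It called 34 genes without AgRP-Gq;POMC-Gi replicate 1, 2 without AgRP-Gq;POMC-Gi replicate 2 and 1 without control replicate 2. Both libraries of one group lay above both of the other for 11.7% of the genes in the AgRP-Gq;POMC-Gi direction and for 22.1% in the control direction. These shares compare plain CPM, whereas the log2 fold changes and p-values of edgeR also use its TMM scaling factors. The lean of the shares to 1 direction is therefore not read as a shift in expression.

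The genes with the smallest unadjusted p are given as values and not as calls. *Erbb4* (chr1:68032186-69108059, minus strand), a neuregulin receptor of interneurons, had 62, 108, 231 and 157 UMIs, which is 180 and 227 CPM in control libraries and 416 and 509 CPM in the others. The groups did not overlap, and the log2 fold change was 1.3 ± 0.24 (SE; edgeR adjusted p = 0.553). In other neurons the same difference was 0.22, and the difference between the populations was 1.09 (adjusted p = 0.403). One nucleus of AgRP-Gq;POMC-Gi replicate 1 held 113 of these UMIs, which leaves 118 in that library, and without that nucleus the log2 fold change was 0.92. *Zfp521*, a zinc finger gene of neural progenitors and some mature neurons, had 14, 23, 50 and 47 UMIs, a log2 fold change of 1.50 ± 0.32 (edgeR adjusted p = 0.926), against −0.01 in other neurons. *Tacr3*, the neurokinin B receptor, had 2, 2, 12 and 15 UMIs, and *Grm7*, a presynaptic glutamate receptor, 408, 755, 1095 and 972, with log2 fold changes of 2.79 and 0.99 (edgeR adjusted p = 0.985 each). The lincRNA gene *9530026P05Rik* had 25, 35, 63 and 55 UMIs.

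Lower values in AgRP-Gq;POMC-Gi libraries were found for *Gapdh*, the glycolytic enzyme, with 60, 53, 23 and 22 UMIs and a log2 fold change of −1.25 (edgeR adjusted p = 0.985). In other neurons *Gapdh* had 106, 113, 63.2 and 101 CPM, a log2 fold change of −0.36, and ribosomal protein genes were also lowest in AgRP-Gq;POMC-Gi replicate 1 there. The 13 mitochondrial genes in cluster 67 summed to 1492, 1255, 574 and 1070 CPM, lower in both AgRP-Gq;POMC-Gi libraries than in both controls. In other neurons they had 1226, 1463, 923 and 1197 CPM, also lower in both. The part of RNA quality in this was not tested. *Pappa*, a protease that cleaves IGF-binding proteins, had 34, 14, 5 and 5 UMIs and a log2 fold change of −2.19, and −1.53 without the nucleus that held 18 of them. It was −1.19 without control replicate 1 and −2.86 without control replicate 2. *Tafa1*, a secreted protein gene, had 114, 202, 104 and 53 UMIs, *4930587E11Rik* had 75, 68, 48 and 19, and *Spg20*, the spartin gene, had 7, 12, 0 and 1. Genes were named only where the libraries of the groups did not overlap, which in this direction held for 22.1% of all genes tested.

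The 10 IEGs that the study combined into its activity score gave no call in cluster 67. Of the 10, 6 reached 5% of the nuclei. Both AgRP-Gq;POMC-Gi libraries lay above both controls for *Btg1* and *Jun* and below for *1700016P03Rik* and *Nr4a1*, while *Homer1* and *Junb* overlapped. Over all genes 11.7% were above and 22.1% below. The median log2 fold change of the 6 was −0.24, against 0.04 over all genes. *Homer1*, a scaffold of the postsynaptic density, had 16, 18, 21 and 19 UMIs in 50 nuclei. *Nr4a1*, an orphan nuclear receptor, had 6, 7, 4 and 3 UMIs, *Jun* 2, 3, 5 and 3, and *Btg1*, an antiproliferative gene, 3, 4, 9 and 3. *Fos*, the most used marker of neuronal activity, had 2, 3, 2 and 1 UMIs in 6 nuclei. *Gem* had 2, 1, 1 and 0, and *Fosl2* and *Nr4a3* had no UMI in any of the 132 nuclei.

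*1700016P03Rik* (chr11:75172560-75177633, plus strand) is the host transcript of 2 microRNAs that are induced by neuronal activity, *Mir212* and *Mir132*, which lie in its intron. The 3′ counts measure the host transcript and not the mature microRNAs, whose RefSeq sequences (GRCm38.p6) are shown because both carry the same seed, bases 2 to 8, in capitals.
mmu-miR-132-3p: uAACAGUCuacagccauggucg
mmu-miR-212-3p: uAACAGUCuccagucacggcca
The host transcript had 20, 14, 5 and 3 UMIs, that is 57.9 and 29.4 CPM for the controls and 9.0 and 9.7 CPM for AgRP-Gq;POMC-Gi mice. The log2 fold change was −2.0 ± 0.55 (edgeR adjusted p = 0.985), whereas other neurons had 0.60 (adjusted p = 0.819), and the difference between the populations was −2.60 (adjusted p = 0.403). That difference had an edgeR adjusted p of 0.0107 without a filter on genes and 0.00511 with the replicate number as a block. One nucleus of control replicate 1 held 14 of the 20 UMIs, and without it the log2 fold change was −1.25 (edgeR adjusted p = 0.988). Without it the difference between the populations was −1.87 (edgeR adjusted p = 0.9999). The same nucleus held all 8 *Junb* UMIs of that library. *Junb*, a partner of Fos proteins, had 8, 4, 1 and 3 UMIs and a log2 fold change of −1.45, which became 0.066 without that nucleus. With each library left out in turn it lay between −2.69 and −0.54.

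**Figure D5:**
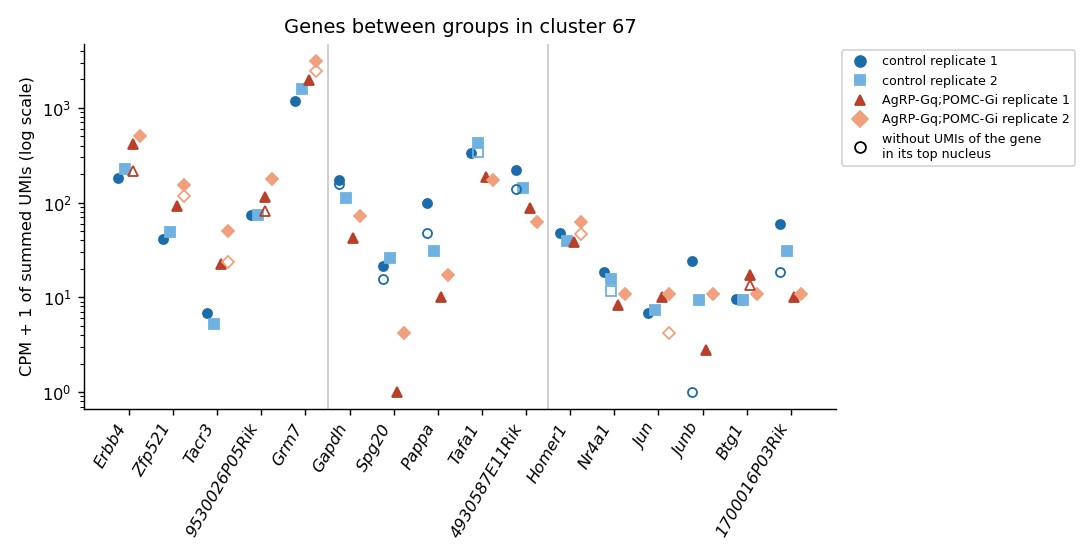
Genes between groups in cluster 67 as CPM + 1 of summed UMIs on a log axis, with 5 genes higher and 5 lower in AgRP-Gq;POMC-Gi libraries and the 6 detected IEGs, none of which passed the adjusted p. Open symbols leave out the UMIs of the gene in the nucleus that held most of them, which brings *Erbb4* of AgRP-Gq;POMC-Gi replicate 1 down to the control libraries and *Junb* of control replicate 1 to 0.

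Among the gene lists none had a called member between the groups, and the counts below stand beside 11.7% of all genes above, 22.1% below and a median log2 fold change of 0.04. Counts above and below compare CPM without TMM factors, while the medians use these factors. They also stand beside the sums of ribosomal protein and mitochondrial genes, both lower in both AgRP-Gq;POMC-Gi libraries of the cluster than in both controls (1855 and 2740 CPM against 3954 and 2824 CPM, and 574 and 1070 CPM against 1492 and 1255 CPM), whose part in the list values was not tested. Of 29 voltage-gated potassium channel genes tested, both AgRP-Gq;POMC-Gi libraries were above both controls for 9 and below for 2, with a median log2 fold change of 0.38. Of 31 synaptic organizer genes 9 were above and 2 below (median 0.25), and of 23 glutamate receptor genes 8 were above and 3 below (median 0.23). Of 23 receptors of feeding circuits 4 were above and 7 below, and the tachykinin receptors stood on both sides, *Tacr3* above and *Tacr1*, the substance P receptor with 9, 16, 4 and 1 UMIs, below. Of 9 other activity genes tested, none was above and 4 were below. *Jund* and *Scg2*, both among the 4, had log2 fold changes of −1.54 and −0.77, while *Vgf*, at −1.25, overlapped between the groups with 24, 14, 5 and 10 UMIs. In control replicate 1, 9 of the 24 *Vgf* UMIs and 21 of the 50 *Scg2* UMIs came from the same nucleus as *Junb*. Without TMM factors the median log2 fold change of all genes moved from 0.04 to −0.11, and the genes at an unadjusted p under 0.05 became 154 higher and 468 lower.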

How the data were processed

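The authors prepared nuclei by sorting on DRAQ5, made 10x Genomics 3′ libraries and, per the labels and their methods, counted UMIs with Cell Ranger 7.0.0 on GRCm38 (mm10) and processed them with Seurat 4.3.0. The deposited matrices hold raw UMI counts of 32285 genes for each barcode. The authors' deposited table of nuclei gives UMIs, genes, the percent of mitochondrial RNA, the nuclei kept (at least 800 UMIs, 500 genes and at most 10% mitochondrial RNA, then a doublet step), cluster and cell type. Its columns with an IEG score and category per cluster are the authors' comparison and were not used. UMI and gene totals of the matrices equal those of the table in every barcode.

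UMIs were summed per library over the nuclei of cluster 67 and over all other neurons. The main test was the quasi-likelihood test of edgeR 4.0.16 (R 4.3.3) with TMM factors and Benjamini-Hochberg adjustment, applied to genes detected in 5% or more of cluster 67. The interaction with population had the library as a block. The study's own mixed model over nuclei was not used here. Counts were simulated from the same libraries for 12510 genes, of which 200 of at least 50 CPM were changed. Each gene was drawn independently around a common mean, with the spread that edgeR fitted to it. UMIs gathered in a single nucleus and differences shared by many genes of a library were not simulated. The rates of recovery therefore apply to counts without them. The tests made 3 false calls in cluster 67 at 2-fold and 3 at 4-fold. The interaction recovered 18% and 93.5% with 2 and 7 false calls. Alternatives were no TMM factors, DESeq2 1.42.0, no filter, filterByExpr, leaving out each library, a block for the replicate number and, chosen after seeing the data, leaving out the nucleus with most UMIs of a gene. Log2 ratios to other neurons used CPM + 1, and folds used CPM alone. Named genes were the 20 leading and 10 low genes, the list members past 2-fold in 4 of 4 libraries, the study's IEGs and, between groups, the 5 genes of smallest unadjusted p in each direction whose libraries did not overlap. Other genes are named for their role, chosen with values known. The cluster, the gene lists and the tests were chosen with earlier results of these data known. Gene positions are those of GENCODE M21. The software was Python 3.11.15, scipy 1.17.1, pandas 2.3.3, matplotlib 3.10.9 and numpy 2.4.6.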

Additional observations from a re-analysis of the deposited data

How the results depend on the processing

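Genes called between groups in cluster 67 numbered 0 without TMM factors, with DESeq2 and with filterByExpr, 10 without a filter on genes, and 0 to 30 with each library left out. For the difference from other neurons the counts were 0, 0, 0, 11, and 0 to 34. The 34 came without AgRP-Gq;POMC-Gi replicate 1. With the replicate number as a block there were 4 calls in cluster 67 (*Cacna2d1*, *Erbb4*, *Zfp521* and *Pappa*) and 17 for the difference from other neurons. Deviations of same-numbered libraries had r = −0.03 over 3757 genes. *Ttr* in other neurons nevertheless went with the number, at 1.5 and 7.5 CPM in replicate 1 of each group against 1006 and 581 CPM in replicate 2. Whether the number stands for a shared preparation is not stated. Log2 fold changes of named genes kept direction and side of the threshold in 117 cases, and that of *Junb* reversed to 0.066 without the nucleus with most of its UMIs. This tally does not take in every alternative, and some named genes passed the threshold without a filter or with the block, as given above. The 5 genes named in each direction were chosen because their libraries did not overlap. Their direction with a library left out was therefore largely set by that choice. The transmitter class was not reached at 10-fold, with a ratio of 4.92. Levels of leading genes kept direction in 120 of 120 cases. These genes were chosen as higher in 4 of 4 libraries, so leaving out a library could not reverse them. Of the 120, 9 moved by more than the spread between libraries, under log-normalized values or thinning to 2000 UMIs. The share among neurons kept its direction with each library left out (−0.671 to −0.112 points), and was −0.00609 points of all kept nuclei. The difference of median UMIs, 1240, ranged from 151 to 2329. With 22 to 43 nuclei per library, genes below about 10 CPM rest on a few UMIs.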

Other observations

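Some genes of cluster 67 had many or nearly all of their UMIs in 1 or a few nuclei. These genes were chosen after their values were seen. *Rln3*, which encodes the peptide relaxin-3, had 21 UMIs, all in the nucleus of control replicate 1 that also held the *Junb* UMIs. That nucleus had 25598 UMIs, among them 102 of *Il1rapl2*, 19 of *Gad2* and 21 of *Scg2*, and none of *Foxp2*, *Onecut1*, *Onecut2*, *Slc32a1* or *Slc6a5*. It held 25 of the 196 UMIs of the 10 IEGs over all nuclei, where the next nucleus had 9 and the median was 1, and 43 nuclei had none. Per 10000 UMIs it had 9.77 IEG UMIs, and the highest other nucleus had 11.

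*Dqx1*, a helicase gene, had 60 of its 61 UMIs in 1 nucleus of AgRP-Gq;POMC-Gi replicate 1, and *Gm31045* had 36 of 41 in 1 nucleus of control replicate 1. *Cacna2d1*, a calcium channel subunit, had 12, 11, 16 and 154 UMIs in the 4 libraries, in 28 nuclei, with 45 and 44 in 2 nuclei. *Npas1* had 15 of its 27 UMIs in 1 nucleus of AgRP-Gq;POMC-Gi replicate 2. *Zfp804b* was spread more widely, with 133, 440, 335 and 727 UMIs in 85 nuclei. At most 185 of its 1635 UMIs lay in 1 nucleus, also of AgRP-Gq;POMC-Gi replicate 2. *Zfp804b* and *Npas1* are the genes that name cluster 30, the glutamatergic cluster most like cluster 67.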
